A study of Rattus norvegicus with 20 samples.

Results

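Transcripts of 9 histone chaperones were followed in cultured cardiomyocytes (heart muscle cells) of neonatal rats. They were Chaf1a and Chaf1b, the 2 large subunits of chromatin assembly factor 1 (CAF-1), Asf1a and Asf1b, Hat1, Nasp, Hira, Daxx and Hjurp. These members were chosen by name as one functional family, with earlier results of the same libraries in view, the differences under doxorubicin included, and 1 of them, Chaf1b, was also singled out by its gene identifier. Their levels under doxorubicin are therefore given as a description, with no p-value, and their calls there only as a count beside that of all genes. All 9 were found among the 15503 genes of the deposited table, and all 9 were among the 15449 genes that passed the filter on low counts. The cells were kept for 72 h with phosphate-buffered saline (PBS), with histidine at 100 nM, with doxorubicin at 1 µM, or with histidine at 100 nM and doxorubicin at 1 µM together, with 5 libraries in each of the 4 groups. The series concerns plasma histidine and recurrent atrial fibrillation, and its cell experiment asked how histidine acts on heart cells with and without doxorubicin, a cancer drug of the anthracycline family that poisons topoisomerase II and can damage the heart. The labels name neither the strain nor the age in days of the animals, and do not say whether the 5 libraries of a group were separate cultures; the p-values below thus measure spread among libraries, some or all of which may be technical.

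Histone chaperones escort histones from synthesis to DNA and keep them from binding where they should not. During DNA replication, new H3-H4 is acetylated by HAT1, held by NASP, passed on by ASF1 and placed on the new strands by CAF-1, which docks on the replication clamp PCNA. Outside replication, the variant H3.3 is deposited by the HIRA complex in active chromatin and by DAXX with ATRX in repeats, while HJURP loads the centromeric variant CENP-A. Heart muscle cells of the newborn stop dividing soon after birth, whereas fibroblasts and other cells of such cultures can go on dividing.

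The promoters of 4 members are shown, Chaf1a and Chaf1b as the CAF-1 pair and Asf1b and Hjurp as the members furthest below PBS under doxorubicin. Sequences are those of RefSeq on assembly GRCr8, the 250 bases before the start of the gene in the gene's direction, at chr9:960975-961224 (plus strand) for Chaf1a, chr11:46670400-46670649 (plus strand) for Chaf1b, chr19:41100353-41100602 (minus strand) for Asf1b and chr9:96315459-96315708 (minus strand) for Hjurp. Capitals mark a match to a CCAAT box (CCAAT, or ATTGG where it lies on the other strand) or to an E2F motif.
Chaf1a: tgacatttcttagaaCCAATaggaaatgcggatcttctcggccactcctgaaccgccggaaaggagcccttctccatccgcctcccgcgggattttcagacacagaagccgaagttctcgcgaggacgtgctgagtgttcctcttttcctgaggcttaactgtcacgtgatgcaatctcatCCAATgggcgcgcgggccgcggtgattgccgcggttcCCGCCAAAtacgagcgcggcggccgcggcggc
Chaf1b: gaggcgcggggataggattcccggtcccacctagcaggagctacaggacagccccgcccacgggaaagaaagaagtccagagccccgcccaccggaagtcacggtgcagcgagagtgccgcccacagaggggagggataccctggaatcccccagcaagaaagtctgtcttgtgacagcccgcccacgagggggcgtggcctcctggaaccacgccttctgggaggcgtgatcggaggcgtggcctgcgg
Asf1b: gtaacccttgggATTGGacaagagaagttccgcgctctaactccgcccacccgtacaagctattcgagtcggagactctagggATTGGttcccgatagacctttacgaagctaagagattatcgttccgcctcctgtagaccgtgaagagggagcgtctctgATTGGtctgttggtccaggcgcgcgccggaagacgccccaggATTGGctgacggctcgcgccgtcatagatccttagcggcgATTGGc
Hjurp: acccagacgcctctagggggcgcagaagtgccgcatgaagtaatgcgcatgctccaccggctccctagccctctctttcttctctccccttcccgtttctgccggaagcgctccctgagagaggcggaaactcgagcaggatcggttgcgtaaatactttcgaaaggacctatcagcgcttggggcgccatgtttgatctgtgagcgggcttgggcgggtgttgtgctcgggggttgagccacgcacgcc

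A RefSeq promoter, from 250 bases before to 50 bases after the start, was matched for 8 of the 9 members; that of Asf1a was not analysed here. E2F motifs, the sites of the S phase transcription factors of that name, were searched on both strands as TTTCCCGC, TTTGGCGC, TTTCGCGC or TTTGGCGG, none of which contains either of the other motifs. One of these occurred in 1 of the 8 members, Chaf1a, as TTTGGCGG on the other strand with its first base 32 bases before the start, and in 2.18% of all 33469 promoters. The CHR motif TTTGAA, an element of mitotic genes, was present in Nasp and, after the start, in Asf1b, 2 of 8 members, against 18.3% of all promoters. A CCAAT box was present in 4 of 8, namely Hat1, Nasp, Chaf1a and Asf1b, against 37.5% of all promoters. The Asf1b promoter held 5 of them, at 238, 167, 88, 46 and 6 bases before the start, while the Chaf1b and Hjurp promoters matched none of the 3 motifs. A match is a description of the letters and not a site shown to be used.

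Total counts per library ran from 53246205 to 83624651. The library of doxorubicin replicate 4 stood apart from the other 19 on the second principal component of the expression values. This component held 7.43% of the variance, and the library lay at 107.9 against -18.9 to 9.04. Some of the values that it moves are therefore given with and without it, and the others only with it. Markers of several cell types were present and moved with the drug. The summed level of 17 cardiomyocyte markers was 1112 to 1251 CPM (read counts scaled to the size of the library) with PBS and 202.4 to 332.4 CPM with doxorubicin. The highest of these drug sums was that of replicate 4. Of the 17, 15 fell, or 16 without that library. The 12 fibroblast markers summed to 74780 to 82220 CPM with PBS and 32160 to 56470 CPM with doxorubicin (4 fell and 2 rose, or 4 and 1 without that library). The 8 smooth muscle and pericyte markers summed to 7449 to 8725 and 2651 to 5860 CPM (7 fell, or 8 without that library, which held the highest drug sum). All 12 macrophage and leukocyte markers fell, with and without replicate 4, from a sum of 1241 to 1314 CPM to 153.2 to 224.2 CPM, the highest in replicate 4. Cx3cr1 and C1qb were at 0 reads in a doxorubicin library. The 9 endothelial markers summed to 200.6 to 222.9 and 233.8 to 274.4 CPM, with 4 lower and 4 higher (4 and 3 without replicate 4), and Kdr and Tie1 at 0 reads in a doxorubicin library. In bulk samples such as these, fewer cells of a type and less RNA per cell cannot be told apart, and the part of the changing cell types in the levels below was not tested.

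Levels between genes were set side by side as FPKM, in which reads are divided by gene length and library size. With PBS, Nasp was highest at 20.5 ± 1.81 FPKM (SD, n = 5), followed by Daxx at 13.1 ± 1.06, Chaf1a at 9.23 ± 0.547 and Hat1 at 8.88 ± 0.486. Asf1b stood at 7.74 ± 0.645 FPKM, Hira at 6.77 ± 0.259, Hjurp at 6.08 ± 0.340, Chaf1b at 6.04 ± 0.520 and Asf1a at 4.997 ± 0.310. The libraries of Chaf1a and Hat1 overlapped, as did those of Hjurp and Chaf1b and of Chaf1b and Asf1a, whereas the other neighbours in this order did not overlap. With doxorubicin the order began with Daxx at 10.3 ± 1.50, Nasp at 8.49 ± 2.35 and Asf1a at 6.54 ± 1.62 FPKM and ended with Chaf1b at 2.29 ± 0.334, Asf1b at 1.64 ± 0.364 and Hjurp at 1.10 ± 0.356. Asf1a thus stood last of 9 with PBS and behind only Daxx and Nasp with doxorubicin, although its libraries there overlapped those of both neighbours. That place rested on doxorubicin replicate 4. Without this library Asf1a stood at 5.85 ± 0.596 FPKM (n = 4), below Hira at 6.13 ± 0.483. The 9 transcripts together made 83.4 ± 2.35 FPKM with PBS, 85.5 ± 6.30 with histidine, 46.2 ± 2.25 with doxorubicin and 45.8 ± 1.21 with both compounds, and no library with doxorubicin reached the lowest without it. For Nasp and Hat1 the gene lengths implied by the FPKM in this order and sum differ between libraries, as given with Nasp.

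**Figure D1:**
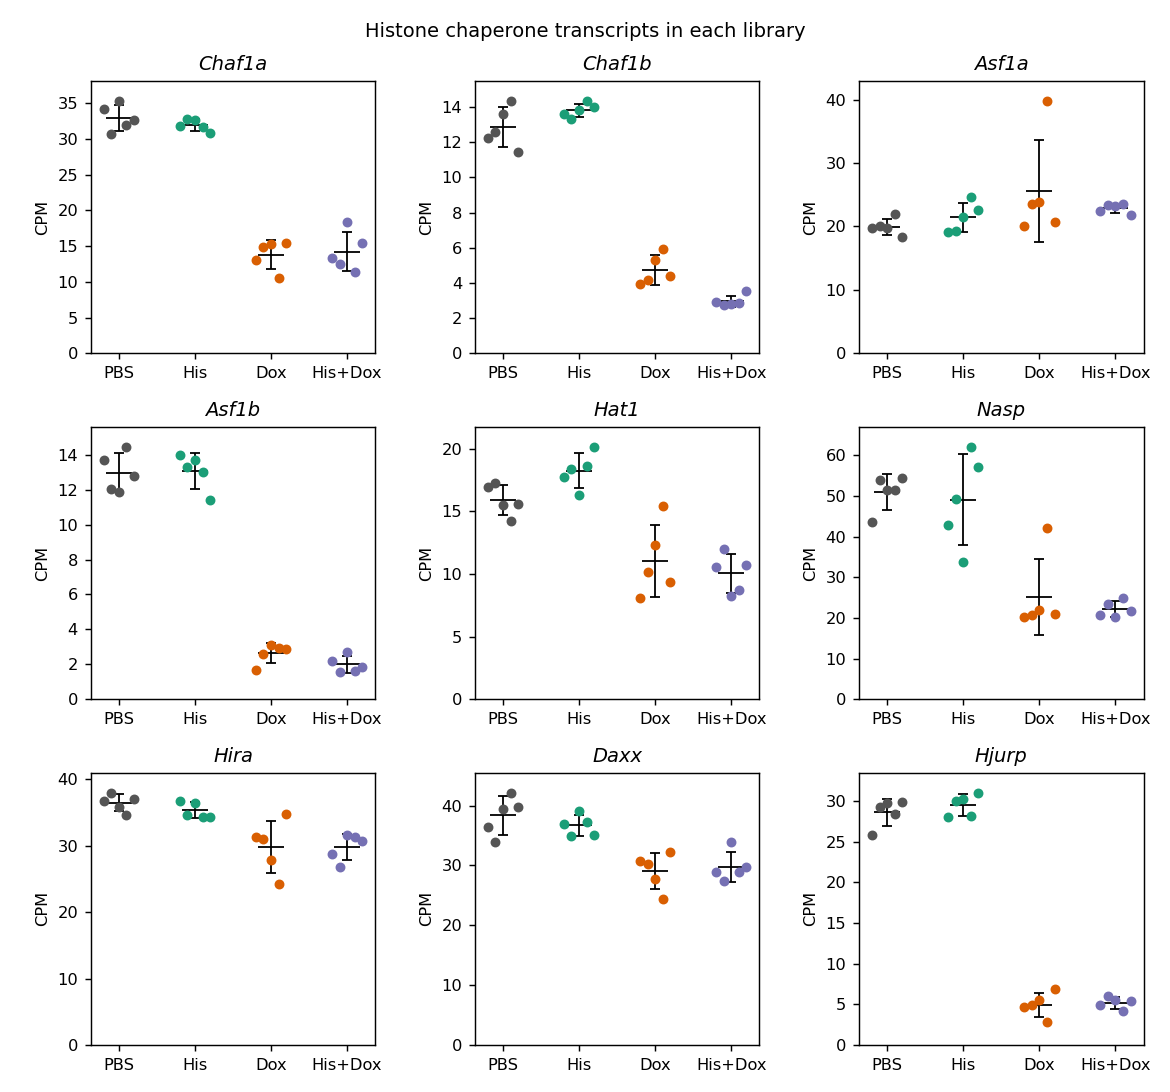
Level of each of the 9 transcripts in CPM (vertical axis, from 0) in the 4 groups PBS, histidine (His), doxorubicin (Dox) and both (His+Dox); points are the 5 libraries in replicate order, and the bar and whiskers are the mean and SD. Chaf1a, Chaf1b, Asf1b, Hjurp and, narrowly (33.94 against 33.85 CPM), Daxx are separated by doxorubicin in all libraries. Chaf1b is lower again with both compounds, a difference that did not pass the test over all genes. Doxorubicin replicate 4 is the high point of Asf1a (39.8 CPM) and Nasp (42.0 CPM).

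The CAF-1 subunits were both lower under doxorubicin. Chaf1a (ENSRNOG00000046479, mRatBN7.2 chr9:874051-900654, plus strand), which encodes the large subunit that binds H3-H4 and PCNA, stood at 34.2, 30.7, 35.3, 31.9 and 32.6 CPM in the PBS libraries and at 31.8, 32.8, 32.7, 31.7 and 30.9 with histidine. It stood at 13.02, 14.8, 15.3, 10.5 and 15.4 CPM with doxorubicin and at 13.4, 12.6, 18.4, 11.3 and 15.5 with both. Every library with doxorubicin was below every library without it, and the libraries with histidine overlapped those without it at both levels. The log2 difference was -1.25 ± 0.12 (SE) for doxorubicin against PBS, a level 2.38-fold lower, and -1.17 ± 0.12 for both against histidine.

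Chaf1b (ENSRNOG00000001692, chr11:33200981-33221070, plus strand), the middle subunit of the complex, gave 12.3, 12.6, 13.6, 14.3 and 11.4 CPM with PBS and 13.6, 13.3, 13.8, 14.3 and 13.99 with histidine. With doxorubicin it gave 3.94, 4.15, 5.31, 5.91 and 4.40 CPM, and with both compounds 2.91, 2.76, 2.78, 2.88 and 3.52. The libraries lay on 3 levels: the 10 libraries without the drug overlapped, the drug alone lay below them, and all 5 libraries with both lay below all 5 with the drug alone. The last difference did not pass the test over all genes (adjusted p 0.0770, edgeR), and 1.06% of all genes had groups separated in that comparison. Doxorubicin against PBS was lower by a log2 value of -1.44 ± 0.11 (2.71-fold), and both against histidine by -2.22 ± 0.11 (4.66-fold). As a share of the summed FPKM of the 2 subunits, Chaf1b made 39.5% ± 2.43 (SD, n = 5) with PBS and 42.1% ± 1.13 with histidine. The share was 36.6% ± 6.89 with doxorubicin, where the libraries ran from 31.9% to 48.5% and the highest was replicate 4, and 26.2% ± 3.63 with both, where they ran from 20.2% to 29.9%. The shares with both compounds did not overlap those of any other group, the nearest being 29.9% against 31.9% with doxorubicin. They rest on the Chaf1b levels given above and are not a separate observation.

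Of the 2 genes for ASF1, Asf1b was lower under doxorubicin and Asf1a was not. Asf1b (ENSRNOG00000005115, chr19:24181028-24195549, minus strand), the form known from dividing cells, stood at 13.7, 12.0, 11.9, 14.5 and 12.8 CPM with PBS and 13.98, 13.3, 13.7, 13.04 and 11.4 with histidine. In the doxorubicin libraries it stood at 1.69, 2.61, 3.12, 2.96 and 2.86 CPM, and with both at 2.19, 1.55, 2.71, 1.63 and 1.87. Its level was 4.89-fold lower for doxorubicin against PBS (log2 -2.29 ± 0.16) and 6.56-fold lower for both against histidine (log2 -2.71 ± 0.16), and no library with the drug overlapped one without.

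Asf1a (ENSRNOG00000000415, chr20:32893573-32908808, plus strand), the form also found in resting cells, gave 19.8, 20.1, 19.8, 21.9 and 18.3 CPM with PBS and 19.2, 19.3, 21.5, 24.6 and 22.6 with histidine. It gave 20.1, 23.6, 23.8, 39.8 and 20.7 CPM with doxorubicin and 22.5, 23.3, 23.2, 23.6 and 21.8 with both. One library, doxorubicin replicate 4, was far above the rest, and the other groups overlapped. The log2 difference for doxorubicin against PBS was 0.36 ± 0.14 with that library and 0.14 without it, and the mean went from 25.6 ± 8.10 CPM (SD, n = 5) to 22.0 ± 1.93 (n = 4). Asf1a lies wholly within Mcm9, a helicase gene read from the other strand (chr20:32844951-32929600), and the libraries do not mark strand, so reads of the 2 genes in shared exons cannot be told apart; Mcm9 stood at 13.96 ± 1.84 CPM with PBS and 12.4 ± 2.23 with doxorubicin (n = 5), with 9.33 in replicate 4. Asf1b made 60.7% ± 1.80 of the summed FPKM of the 2 ASF1 genes with PBS and 59.6% ± 3.48 with histidine, but 20.3% ± 4.42 with doxorubicin and 17.0% ± 3.39 with both. The larger of the 2 shares was that of Asf1b in every library without the drug and that of Asf1a in every library with it.

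**Figure D2:**
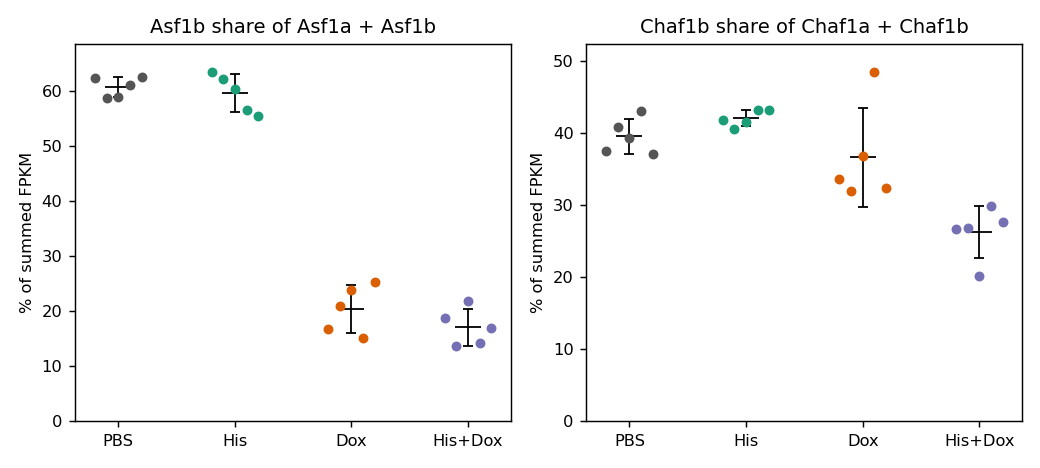
Share of Asf1b in the summed FPKM of Asf1a and Asf1b (left) and of Chaf1b in that of Chaf1a and Chaf1b (right), in percent, per library (points) with mean and SD. The Asf1b share runs from 55.4% to 63.5% without doxorubicin and from 13.6% to 25.2% with it, and the Chaf1b share is lowest with both compounds, at 20.2% to 29.9%.

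Of the genes that supply H3-H4, Hat1 (ENSRNOG00000001524, chr3:56217342-56275517, plus strand) encodes the acetyltransferase of newly made H4. Its PBS libraries ran from 14.2 to 17.2 CPM and its histidine libraries from 16.3 to 20.1. Under the drug they ran from 8.10 to 15.4 CPM alone and from 8.26 to 12.0 with both. Only doxorubicin replicate 4, at 15.4 CPM, overlapped the PBS libraries. The log2 difference was -0.52 ± 0.14 for doxorubicin against PBS and -0.86 ± 0.14 for both against histidine.

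Nasp (ENSRNOG00000016454, chr5:130057363-130082928, minus strand), the chaperone of the soluble H3-H4 reserve, stood at 43.7, 54.0, 51.5, 51.4 and 54.5 CPM with PBS and at 42.9, 49.4, 33.9, 62.1 and 57.2 with histidine. With doxorubicin it stood at 20.1, 20.8, 21.8, 42.0 and 21.0 CPM and with both at 20.8, 23.4, 20.2, 24.8 and 21.7. Replicate 4 of doxorubicin, at 42.0 CPM, lay just below the lowest PBS library and above 1 histidine library, whereas the other drug libraries lay below every library without the drug. The log2 difference was -1.02 ± 0.18 for doxorubicin against PBS and -1.15 ± 0.18 for both against histidine, and the doxorubicin mean was 25.2 ± 9.45 CPM (SD, n = 5) with replicate 4 and 20.9 ± 0.702 (n = 4) without it.

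The 2 deposited scales of Nasp differed. Dividing reads by FPKM and by the library total gives an implied gene length, if the authors scaled FPKM to the totals of the deposited counts. How they computed FPKM is not given in the sources used here. This was 3066 to 3096 bases in doxorubicin replicates 1, 3, 4 and 5 and 2313 to 2454 bases in the other 16 libraries, with 2383 in doxorubicin replicate 2. The implied length thus differed between libraries for this gene. As a result, on FPKM the mean with both compounds, 9.59 ± 0.816, lay above that with doxorubicin, 8.49 ± 2.35, while on CPM it lay below, 22.2 ± 1.90 against 25.2 ± 9.45; the groups overlapped on both scales. The length behind Hat1 ran from 1458 to 1938 bases across libraries of all groups, and for the other 7 members the highest length was at most 1.05 times the lowest. Among 10528 genes with at least 200 reads in every library, 901 (8.56%) varied by more than 1.2 times. Whether transcripts of other lengths were present was not tested, and the fold changes of Nasp and Hat1 are those of the counts.

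**Figure D3:**
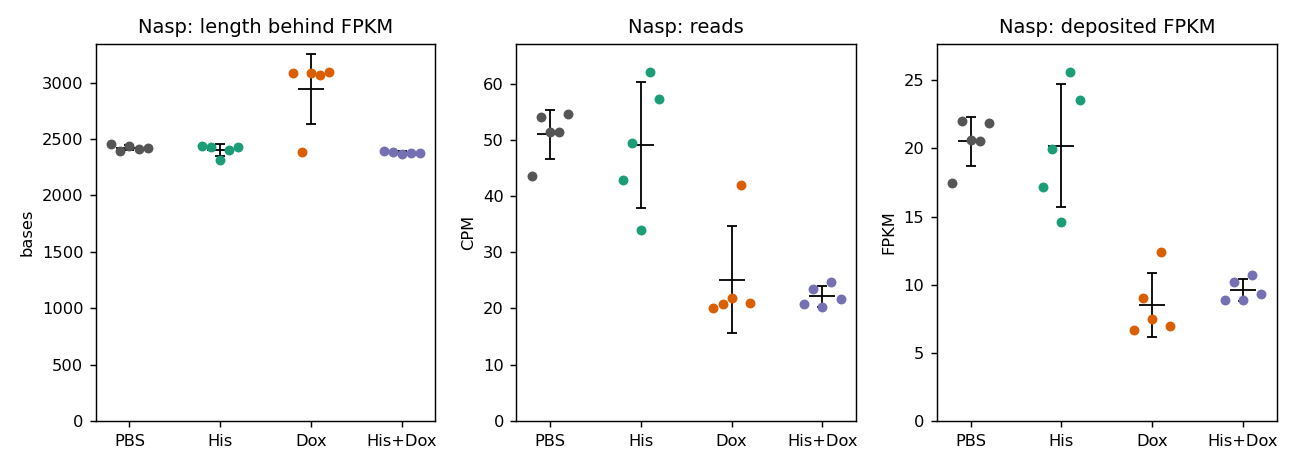
Nasp in each library: the gene length in bases implied by the deposited reads and FPKM (left), reads in CPM (middle) and deposited FPKM (right), all from 0, with mean and SD per group. In 4 of the 5 doxorubicin libraries the length is 3066 to 3096 bases, against 2313 to 2454 in the other 16 libraries.

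The chaperones of H3.3, Hira and Daxx, differed less than the CAF-1 subunits, Asf1b, Hat1, Nasp and Hjurp. Hira (ENSRNOG00000045770, chr11:82024469-82133529, minus strand), the scaffold of the HIRA complex, ran from 34.6 to 38.0 CPM with PBS and from 34.3 to 36.8 with histidine. Doxorubicin libraries ran from 24.3 to 34.7 CPM, and those with both from 26.9 to 31.6. The log2 difference was -0.29 ± 0.08 for doxorubicin against PBS, where the groups overlapped, and -0.24 ± 0.08 for both against histidine, where they did not. Its start overlaps, by 132 bases, a mitochondrial ribosomal protein L40 gene on the other strand, which stood at 12.3 ± 0.904 CPM with PBS and 12.2 ± 1.30 with doxorubicin (n = 5). Daxx (ENSRNOG00000000477, chr20:4970092-4975843, minus strand), the partner of ATRX, ran from 33.9 to 42.1 CPM with PBS and from 34.9 to 39.1 with histidine. Doxorubicin libraries ran from 24.4 to 32.2 CPM, and those with both from 27.3 to 33.9. Its log2 difference was -0.40 ± 0.08 for doxorubicin against PBS and -0.30 ± 0.08 for both against histidine, and neither pair of groups overlapped.

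Hjurp (ENSRNOG00000022911, chr9:88853386-88867728, minus strand), the CENP-A loader, was the member furthest below PBS with doxorubicin alone. Its PBS libraries gave 25.8, 29.3, 29.7, 28.3 and 29.8 CPM and its histidine libraries 28.0, 30.0, 30.3, 28.1 and 31.0. With doxorubicin it gave 4.63, 4.92, 5.52, 2.81 and 6.82 CPM and with both 4.89, 6.05, 5.47, 4.12 and 5.34. The lowest library without the drug (25.8 CPM) stood far above the highest with it (6.82 CPM), with replicate 4 of doxorubicin the lowest. The log2 difference was -2.53 ± 0.16 for doxorubicin against PBS (5.79-fold) and -2.51 ± 0.16 for both against histidine (5.70-fold).

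Counted over the fit of all genes, doxorubicin against PBS called 9 of the 9 members (8 lower, 1 higher) at an adjusted p under 0.05, where 43.2% of all genes were called, 21.5% lower and 21.7% higher. In both against histidine 8 of the 9 were called, all lower, against 40.2% of all genes, 20.3% lower and 19.9% higher. The groups did not overlap for 6 members in the first comparison (31.1% of all genes) and for 8 in the second (35.2%). The median log2 difference of the 9 was -1.02 and -1.15, beside 0.05 and 0.01 over all genes. Since the members were selected on results that included these comparisons, nothing is read from these counts. Without doxorubicin replicate 4 the first count was 8, Asf1a being the one lost, with a log2 difference of 0.14 in place of 0.36.

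Histidine alone moved none of the members past the test. For histidine against PBS the 9 log2 differences ran from -0.06 (Daxx) to 0.20 (Hat1), 4 lower and 5 higher, with a median of 0.01 beside 0.00 over all genes. The adjusted p of each was 1.0 (edgeR, Benjamini-Hochberg over all genes), none had an unadjusted p under 0.05, and none had groups that did not overlap (0.841% of all genes). The fit called 0.0% of all genes in this comparison, with 312 at an unadjusted p under 0.05, while DESeq2 called 5, none of them a member. The 95% intervals bound what the spread between libraries leaves possible: that of Hat1 ran from -0.09 to 0.49, that of Nasp from -0.43 to 0.32 and that of Hira from -0.21 to 0.11.

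With doxorubicin present, the member that differed most with the addition of histidine was Chaf1b, without passing the test. Chaf1b stood at 2.97 ± 0.315 CPM with both compounds and 4.74 ± 0.837 with doxorubicin (SD, n = 5 each), a log2 difference of -0.68 ± 0.11 (95% interval -0.90 to -0.45), or 1.60-fold lower. All 5 libraries with both lay below all 5 with doxorubicin, a separation seen in 1.06% of all genes. Its p of 5.05e-06 was the smallest of all 15449 genes, and the adjusted p of 0.0770 (edgeR) missed the threshold of 0.05. The call depended on the settings, and most of those tried did not make it. Among those that did, DESeq2 gave an adjusted p of 2.28e-05 with a log2 difference of -0.68, and edgeR without doxorubicin replicate 4 gave 0.0402 with -0.58. Without both doxorubicin replicates 3 and 4 Chaf1b was not called. Because Chaf1b was singled out when the members were chosen, this p is a place among all genes and not independent evidence.

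No other member passed in that comparison, and the fit called 0.0% of all genes, with 1940 at an unadjusted p under 0.05; DESeq2 called 22, of which Chaf1b was the 1 member. Asf1b, at 1.99 ± 0.473 CPM against 2.65 ± 0.564 (n = 5), had a log2 difference of -0.41 ± 0.16 (95% interval -0.74 to -0.09) and an adjusted p of 0.394 in edgeR, and its groups overlapped. Chaf1a, the partner of Chaf1b in CAF-1, had 0.04 ± 0.11 (interval -0.20 to 0.28), and Hjurp 0.07 ± 0.16 (interval -0.26 to 0.39). The interval of Chaf1a did not include the value of Chaf1b; the difference between the 2 genes was not tested. The remaining members lay between -0.18 (Nasp) and 0.03 (Daxx).

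The interaction, the drug difference with histidine minus the drug difference without it, compares the 2 drug steps directly. For Chaf1b it was -0.78 ± 0.15 (95% interval -1.10 to -0.47), number 3 in order of p among all genes, with an adjusted p of 0.189 in edgeR. DESeq2 gave Chaf1b an adjusted p of 0.00197 with -0.79. The next members were Asf1b at -0.42 ± 0.22 and Hat1 at -0.34 ± 0.20, both with an adjusted p of 0.631 (edgeR), and the other 6 lay between -0.27 (Asf1a) and 0.10 (Daxx). The fit called 0 of the 9 members and 0.0% of all genes, with 1060 genes at an unadjusted p under 0.05, while DESeq2 called 17 genes, Chaf1b among them. Beside this result, the 10 mitotic genes described below had a median log2 difference of -0.40 and the 21 S phase genes of -0.13 for both against doxorubicin, with 0 called in either list. The macrophage markers summed to 146.0 to 158.6 CPM with both and 153.2 to 224.2 CPM with doxorubicin, where the highest sum was that of replicate 4. The part of these genes in the Chaf1b difference was not tested.

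**Figure D4:**
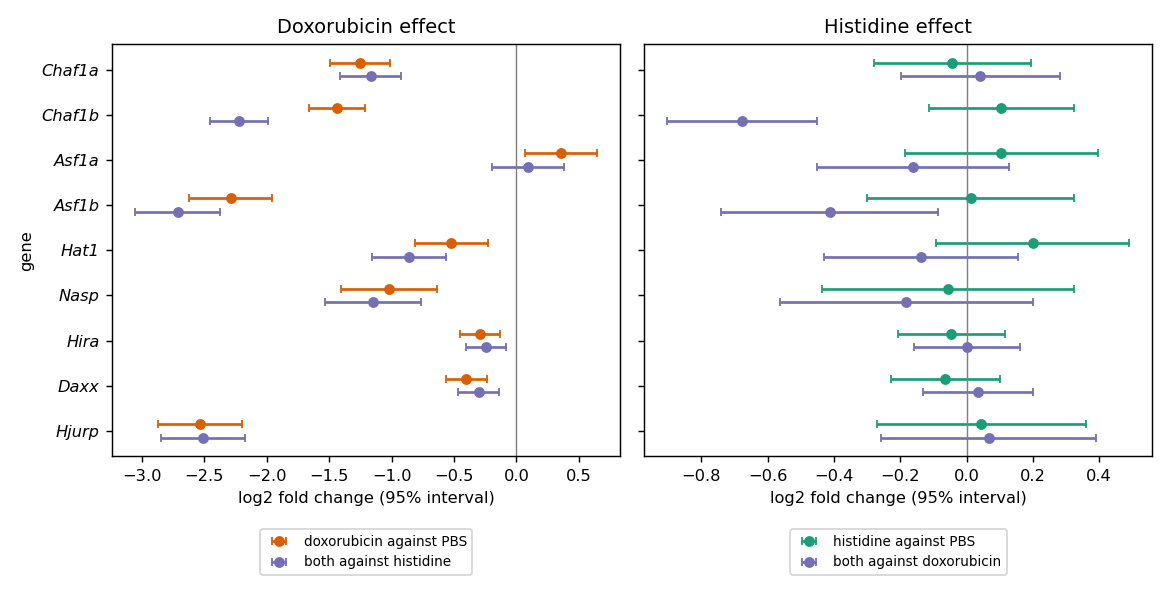
Log2 fold change (horizontal axes, points with 95% intervals) of each of the 9 transcripts for the 2 doxorubicin comparisons (left) and the 2 histidine comparisons (right). On the right only Chaf1b (-0.68) and Asf1b (-0.41), both in the presence of doxorubicin, have an interval that does not include 0; neither passed the test over all genes.

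The partners of these chaperones were described from lists put together with the drug results of the series known. Of 11 other genes of H3-H4 supply and replication-coupled assembly, 8 fell and 0 rose with doxorubicin against PBS (7 fell without replicate 4), with a median log2 difference of -0.63. Tonsl, a reader of unmarked new H4, fell by 1.71 on the log2 scale, from 7.90 ± 0.370 to 2.42 ± 0.889 CPM (adjusted p 2.77e-06, edgeR). Mcm2, a helicase subunit that also holds H3-H4, fell from 73.0 ± 1.63 to 31.5 ± 4.19 CPM, and Pcna, the clamp on which CAF-1 docks, from 73.9 ± 3.78 to 40.4 ± 9.01 CPM. Dnajc9, a heat shock co-chaperone of H3-H4, fell from 34.7 ± 2.97 to 22.5 ± 3.01 CPM. Rbbp4, the small CAF-1 subunit that other chromatin complexes also use, stood at 58.9 ± 3.51 and 58.0 ± 4.06 CPM (log2 difference -0.02 ± 0.07, adjusted p 0.830), with the reservation that near-identical copies can share its reads. Its relative Rbbp7, a partner of HAT1, fell by 0.28 on the log2 scale (adjusted p 0.00536). The 3 CAF-1 subunit genes thus did not move together: 2 were lower, and the difference of the small subunit was smaller than its error.

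All 6 other genes of centromere assembly fell, with a median log2 difference of -2.04. Cenpa, the histone that HJURP carries, went from 23.99 ± 1.52 CPM to 1.85 ± 0.386 (12.9-fold, adjusted p 1.12e-10, edgeR). Oip5, which brings HJURP to the centromere, went from 10.7 ± 0.333 to 1.68 ± 0.806 CPM.

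The other genes of H3.3 deposition gave no such picture. Of 6, 1 fell and 1 rose, and without replicate 4 it was 1 and 3. Cabin1, a subunit of the HIRA complex, fell from 62.7 ± 5.11 to 52.0 ± 4.12 CPM (log2 -0.27 ± 0.07, adjusted p 0.00490), and H3f3b, an H3.3 gene, rose from 427.0 ± 6.59 to 542.5 ± 148.5 CPM (0.35 ± 0.11, adjusted p 0.0194), or by 0.16 without replicate 4 (adjusted p 0.00414). Ubn1, another HIRA subunit, stood at -0.17 ± 0.07 (adjusted p 0.0509), or -0.11 without replicate 4 (0.0845). Atrx stood at 0.21 ± 0.12 (adjusted p 0.161) and rose without replicate 4, by 0.30 (adjusted p 0.0258), as did Ubn2, with 0.20 ± 0.10 (adjusted p 0.128) and 0.28 (0.0137). H3f3a stood at 0.40 ± 0.21 (adjusted p 0.131), or -0.01 without replicate 4. Reads of both H3.3 genes are uncertain because of near-identical copies.

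Chaperones of H2A-H2B and of transcription changed less. Of 11 H2A-H2B genes 4 fell and 0 rose (5 and 0 without replicate 4), with a median of -0.10. Anp32e, which removes H2A.Z, fell by 0.49 on the log2 scale (115.3 ± 6.51 to 82.2 ± 19.6 CPM, adjusted p 0.00125), and Ssrp1 of the FACT complex by 0.33 (adjusted p 4.98e-06), whereas its partner Supt16h had -0.27 ± 0.12 (adjusted p 0.0615), or -0.18 without replicate 4 (0.142). Nap1l1 stood at -0.01 ± 0.07, or -0.03 without replicate 4. Npm1, which has near-identical copies, stood at 0.19 ± 0.13, or -0.00466 without replicate 4. Set stood at -0.10 ± 0.10 (adjusted p 0.437) and fell without replicate 4, by 0.24 on the log2 scale (adjusted p 0.000878). Of 3 transcription-coupled genes 0 passed the test (2 rose without replicate 4), and Supt6h, which keeps histones in place behind the polymerase, stood at 0.14 ± 0.09 (adjusted p 0.234), and at 0.23 without replicate 4 (adjusted p 0.000725).

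Cell cycle genes were counted for scale. Of 11 E2F and DREAM regulators 8 fell and 0 rose (median -1.17), among them E2f1 (-0.86 ± 0.14), E2f8 (-2.63 ± 0.23) and Rbl1 (-1.61 ± 0.16). Without replicate 4 the differences of these genes were -1.075, -2.68 and -1.47. Of 21 S phase genes 19 fell and 1 rose (20 and 1 without replicate 4; median -1.47), the riser being Tyms, the thymidylate synthase, at 0.34 ± 0.07 (adjusted p 0.000514, edgeR). All 10 mitotic genes fell (median -3.11), Mki67 from 183.3 ± 10.5 to 17.97 ± 6.51 CPM and Top2a, the isoform of the drug's target found in dividing cells, from 193.8 ± 8.61 to 21.9 ± 9.998. Asf1b and Hjurp, at -2.29 and -2.53, thus lay between the medians of the S phase and mitotic lists. Chaf1a at -1.25 was closer to 0 than the S phase median, and Chaf1b at -1.44 differed from it by less than its error of 0.11. Nasp, Hat1, Daxx, Hira and Asf1a ran from -1.02 to 0.36. Leaving out 1 library, Chaf1a ran from -1.30 to -1.17 and Nasp from -1.29 to -0.95, so their order was not fixed. For both against histidine, Chaf1b at -2.22 was further from 0 than the S phase median of -1.54, whereas Chaf1a at -1.17 was closer. For both against histidine the counts were 7 fallen of 11 for H3-H4 supply, 6 of 6 for the centromere, 0 fallen and 1 risen of 6 for H3.3 (Ubn2, 0.33 ± 0.10), 5 of 11 for H2A-H2B and 0 fallen and 1 risen of 3 for transcription (Supt6h, 0.29 ± 0.09). They were 8 fallen and 1 risen of 11 for E2F and DREAM (Rb1, the retinoblastoma gene, 0.43 ± 0.10), 20 and 1 of 21 for S phase (Tyms, 0.35 ± 0.07) and 10 of 10 for mitosis. Without doxorubicin replicate 4 in the fit, 1 fell and 3 rose for H3.3 and 2 rose for transcription in that comparison, and the other counts were the same. In the 2 histidine comparisons and the interaction 0 genes of any of these lists were called.

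**Figure D5:**
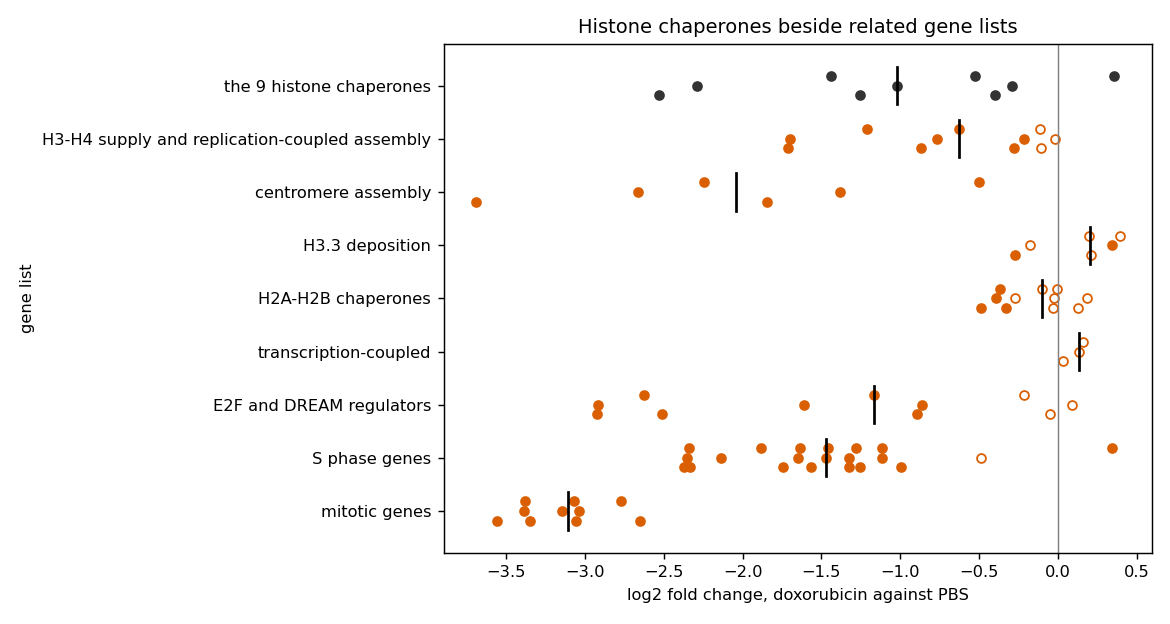
Log2 fold change of doxorubicin against PBS (horizontal axis) for the 9 histone chaperones (dark points, calls not marked) and for 8 lists of related genes (filled: adjusted p under 0.05; open: not past the test); vertical bars are medians. The median is -1.02 for the chaperones, -2.04 for centromere assembly, -1.47 for S phase genes and -3.11 for mitotic genes.

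The genes whose pattern was most like each member were sought over the 20 libraries among 8025 named genes with a mean of at least 5 CPM, by Pearson's r of log2 CPM. This describes libraries that share drug group and depth and carries no test. For Chaf1a the nearest were Mcm2 (r 0.99, and 0.85 after the means of the 4 groups were removed), Ankle1 and Racgap1. Chaf1b was nearest to Tuba1c (0.98, and 0.60 within groups), Fgr (0.98, and 0.35 within groups) and Lst1 (0.98, and 0.38 within groups). For Asf1b they were Kifc1 (0.99, and 0.78 within groups), Knstrn and Birc5, and for Hjurp Gp6 (0.997, and 0.91 within groups), Cep55 and Stab1. Asf1a was nearest to Hibch (0.92, and 0.91 within groups), Bet1 and Golga7, so its likeness lay within the groups, among them the library of doxorubicin replicate 4. Hat1 was nearest to Hnrnpa2b1 (0.94, and 0.77 within groups), Mad2l1 and Tardbp, and Nasp to Tardbp (0.96, and 0.84 within groups), Psip1 and Tmem86a. The 2 genes of H3-H4 supply thus had 1 gene, Tardbp, in common. Doxorubicin replicate 4 was the highest library of its group for both Hat1 and Nasp, and r without it is not given. Hira was nearest to Pfas (0.94, and 0.87 within groups), Plcb3 and Plekhg3, and Daxx to Ttyh3 (0.94, and 0.82 within groups), Maged1 and Cand2, with no gene in common between the 2 chaperones of H3.3.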

How the data were processed

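RNA was sequenced from 20 libraries of neonatal rat cardiomyocytes, 5 in each of 4 groups taken from the sample titles. Libraries were unstranded, made from poly(A) RNA that was fragmented and primed with random hexamers, per the labels' protocols. Trimmomatic and the build mRatBN7.2 come from the submitters' processing notes; which aligner and counter they used is not given in the sources used here. A single deposited table holds unnormalised read counts per gene and, per the file headers, FPKM values computed by the authors. All columns of values matched a sample (0 without one), and 0 entries named no gene. No 2 libraries of a group were duplicates (40 pairs, chi-square per degree of freedom 34.9 to 648.7).

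Members were found by KEGG name (7 genes), protein accession (Asf1b) and protein name (Asf1a). Other symbols came from a RefSeq gene table of GRCr8, used for names only. Members and gene lists were chosen with earlier results of these data known. All members were named, together with a set of partner genes, genes that moved against their list, and the 3 genes most like each member; 1 gene of the partner set is not reported here.

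Counts were filtered with filterByExpr, scaled by TMM (trimmed mean of M values) and fitted in edgeR 4.0.16 (R 4.3.3) with the quasi-likelihood test, 1 fit of the 4 groups over 20 libraries without a block, and Benjamini-Hochberg adjustment over all genes at 0.05. CPM is counts relative to the TMM-scaled library size, given as mean ± SD. Alternatives used DESeq2 1.42.0, limma 3.58.1 on log2(FPKM + 0.1) and log2(FPKM + 1), other scalings, no filter, a replicate block, only the groups compared, and each library left out. The procedure was tested on simulated data.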

Additional observations from a re-analysis of the deposited data

Results flagged for a closer look

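Of 36 groups of 5 libraries (9 genes in 4 groups), 4 held a library far from the other 4, where chance flags about 1 group in 20 (5%). The 9 genes were measured in the same libraries, so the 36 groups are not independent and no excess is read from this count. Chaf1b in histidine plus doxorubicin replicate 5 stood at 3.52 CPM, above the other 4 at 2.76 to 2.91. Asf1a in doxorubicin replicate 4 stood at 39.8 CPM (39.75), above 20.1 to 23.8. Nasp in doxorubicin replicate 4 stood at 42.0 CPM (42.02), above 20.1 to 21.8, and Nasp in PBS replicate 1 at 43.7 CPM (43.65), below 51.4 to 54.5. The gap of Nasp in PBS replicate 1 made 0.7109 of the range of its group, just over the limit of 0.71 for a flag. Of the 4, 2 came from doxorubicin replicate 4, the library that also stood apart over all genes.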

How the results depend on the processing

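Over 30 alternative settings, 7 or 8 members were called for both against histidine and 8 or 9 for doxorubicin against PBS. No member was called for histidine against PBS. Genes called for doxorubicin against PBS ran from 5460 to 7298. For both against doxorubicin the count of genes was 2 with library totals, 2 with upper-quartile scaling, 2 without doxorubicin replicates 3 and 4, 22 with DESeq2 and 0 to 6 leaving out 1 library at a time. Chaf1b was the 1 member called with library totals (adjusted p 0.0332), with upper-quartile scaling (0.0387), with DESeq2, and without doxorubicin replicate 1 (0.0148), 2 (0.0195) or 4 (0.0402) or histidine plus doxorubicin replicate 5 (0.0355), so leaving out 1 library gave 0 to 1 members, while its log2 difference stayed between -0.74 and -0.58. Every other setting called no member for both against doxorubicin. Among these were RLE scaling, the replicate block, only the groups compared, limma on FPKM, and leaving out doxorubicin replicates 3 and 4 together. For histidine against PBS the genes called were 1 without doxorubicin replicates 3 and 4, 1 with limma on log2(FPKM + 1), 5 with DESeq2 and 0 to 1 leaving out 1 library. For the interaction DESeq2 called 17 genes and 1 member, Chaf1b, and leaving out 1 library gave 0 to 2 genes. The cause of these shifts was not tested, beyond the smaller number of libraries where some were left out.

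The call of Asf1a for doxorubicin against PBS was lost in 13 settings, among them only the groups compared and without doxorubicin replicate 4. Leaving out 1 library, its log2 difference ran from 0.14 to 0.43. In the same comparison Nasp ran from -1.29 to -0.95, Hat1 from -0.67 to -0.43 and Hjurp from -2.68 to -2.38. The call of Hira for both against histidine was lost with library totals (log2 difference -0.19) and with limma on FPKM (-0.19 and -0.17). Differences near 0 that missed the threshold also changed sign. For both against doxorubicin, without doxorubicin replicates 3 and 4 these were Chaf1a -0.0211, Asf1a 0.0937, Hat1 0.128, Nasp 0.104, Hira -0.116, Daxx -0.0628 and Hjurp -0.0796. Nasp also turned to 0.21 and 0.19 with limma on log2(FPKM + 0.1) and log2(FPKM + 1), where the implied gene length differs between libraries, and Hira to -0.0001 with RLE scaling. Leaving out 1 library, Chaf1a ran from -0.0671 to 0.11, Asf1a from -0.24 to 0.0544, Hat1 from -0.23 to 0.0113, Nasp from -0.25 to 0.0833, Hira from -0.064 to 0.063, Daxx from -0.0227 to 0.0735 and Hjurp from -0.0829 to 0.21. For the interaction, without doxorubicin replicates 3 and 4, Nasp was 0.16, Hira -0.0699 and Hjurp -0.12; limma on FPKM gave Nasp 0.25 and 0.23 and Hjurp -0.0028; leaving out 1 library gave Chaf1a -0.0236 to 0.16, Nasp -0.23 to 0.14, Hira -0.0181 to 0.11 and Hjurp -0.13 to 0.17. For histidine against PBS, Asf1b ran from -0.0186 to 0.0577 and Nasp from -0.15 to 0.0526 leaving out 1 library.

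The labels do not say what the replicate numbers of the titles stand for. The correlation of same-numbered deviations exceeded 0.1 in 1, 0, 0 and 0 of 5 pairs over the 4 comparisons of 2 groups. In the same order, 2, 3, 1 and 0 of 5 libraries were closest to their own number. With only 5 pairs in each comparison, this cannot exclude that same-numbered libraries share an origin. With the number as a replicate block, 6579 genes and 9 members were called for doxorubicin against PBS, 6310 and 8 for both against histidine, and 0 in the other 3 comparisons.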
